A study of Mus musculus with 12 samples.

Results

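The genes described here are 57 genes of the NRF2 response, glutathione metabolism and antioxidant defence in whole mouse liver. They were chosen by symbol, as regulators of NRF2, enzymes of glutathione synthesis and breakdown, glutathione S-transferases, peroxidases, thioredoxins, peroxiredoxins, superoxide dismutases, pentose phosphate enzymes and a glutathione conjugate exporter. All 57 were among the 54232 gene IDs of the count table, and 55 of them had enough counts to be tested together with 14168 genes in all. The livers came from male C57BL6/J mice of an intragastric feeding model of alcohol-associated steatohepatitis. PF mice (n = 5) received an isocaloric high-fat liquid diet for 8 weeks. AF mice (n = 7) received ethanol in the liquid diet, raised to 27 g/kg per day, for the same 8 weeks. Once a week they were also given an ethanol binge (5 g/kg). According to the study's methods the animals also ate solid food, a Western diet rich in cholesterol and saturated fat or chow, and were killed one day after the last binge, so chronic ethanol feeding and the recent binge cannot be told apart in AF livers. The age label reads 8-week in both groups, which may be the age or the length of feeding. Each library was poly(A)-selected RNA of 1 liver.

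NRF2, encoded by Nfe2l2, is a transcription factor that KEAP1 holds in the cytoplasm and hands over for degradation. When electrophiles or oxidants modify KEAP1, NRF2 accumulates, pairs with a small MAF protein and binds antioxidant response elements near genes for detoxification. Hepatocytes hold much of the body's glutathione, which they make from cysteine, glutamate and glycine, use in peroxidases and transferases, and export. Ethanol oxidation in liver produces acetaldehyde and reactive oxygen species, both of which consume glutathione.

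In AF livers 29 of the 55 tested genes were higher and 5 were lower than in PF livers at an adjusted p of at most 0.05 in edgeR's quasi-likelihood test. Among all 14168 genes tested, 39.8% were called in either direction, 22.0% higher and 17.8% lower, against 52.7% higher and 9.09% lower among these genes. The largest rises were in alpha-class glutathione S-transferases (Gm3776, Gsta1, Gsta2), the cystine transporter gene Slc7a11, the peroxidase gene Gpx2, the mu-class gene Gstm3 and the NRF2-responsive genes Srxn1 and Nqo1. Of these, Gm3776, Gsta1, Slc7a11 and Gpx2 passed the count filter only through their AF counts. They could therefore only be called higher, and they are included in the counts given here. The genes that fell were Sod1, Gstm6, Gstm7, Gstk1 and Gstz1. The median log2 fold change was 0.55 over the 55 genes and 0.04 over all genes. In 20 of these genes every AF liver was above every PF liver, and in 3 (Gstm7, Gstk1, Gstz1) every AF liver was below, where 8.20% and 9.49% of all genes tested did so. Of the 55 genes, 21 were called with a change of at least 2-fold (an absolute log2 fold change of at least 1), which 15.1% of all genes reached (10.6% higher and 4.58% lower), and all 21 were higher in AF. Without AF replicate 6, 10 genes rather than 5 were lower, the added ones being Prdx6, Sod2, Gsta3, Gstp1 and Mgst1.

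**Figure D1:**
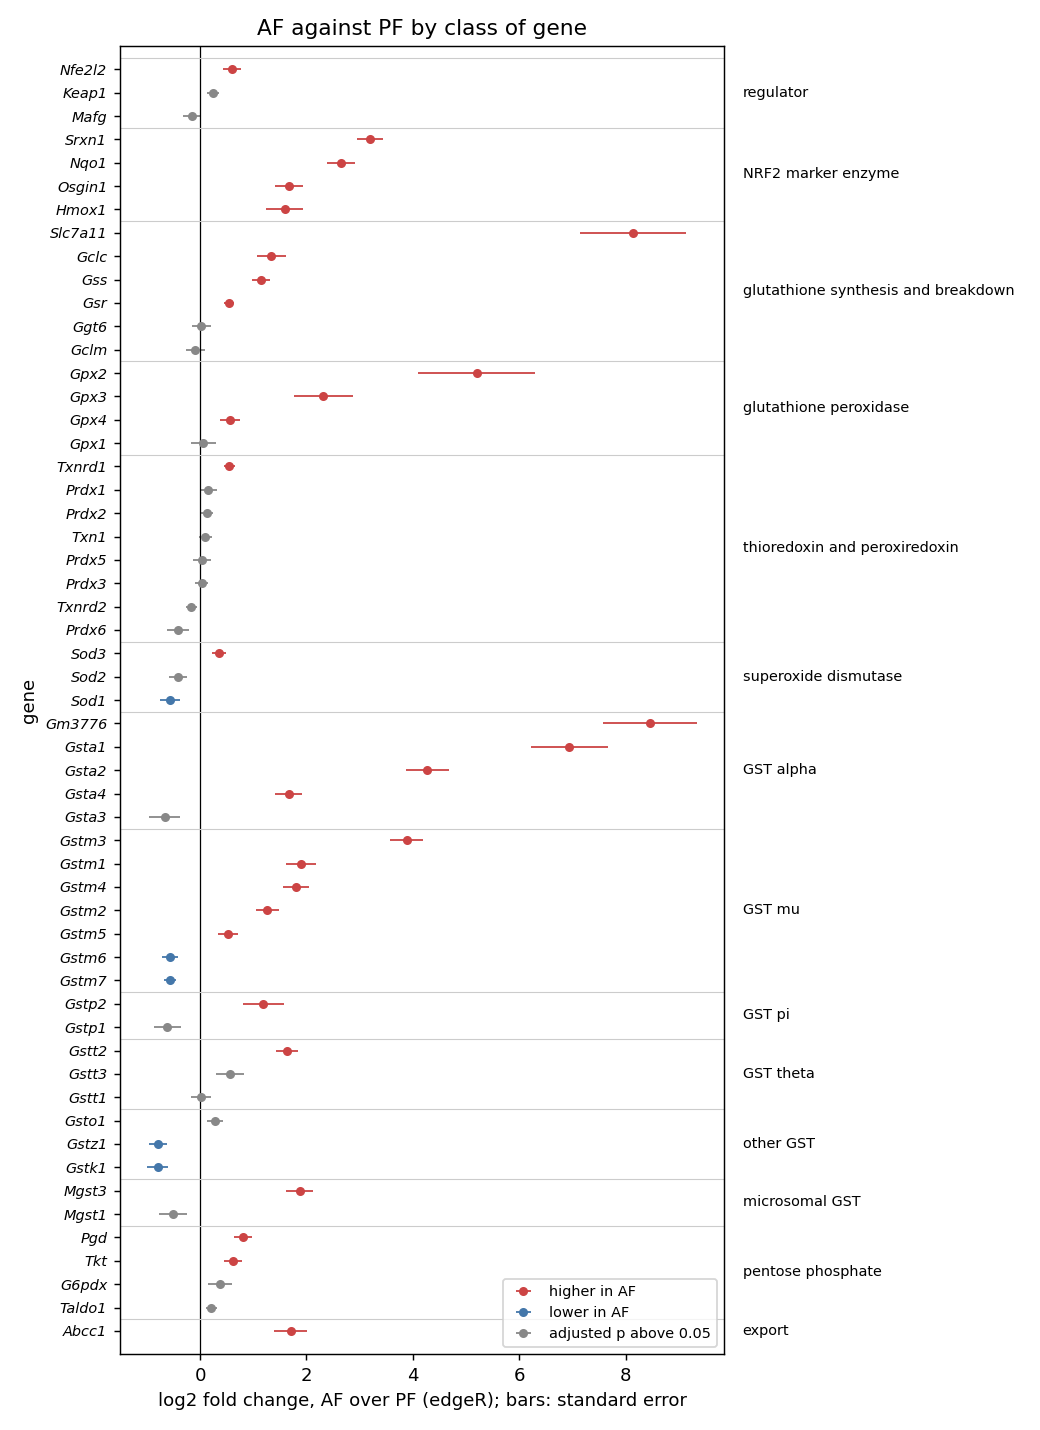
Log2 fold change of AF (n = 7) over PF (n = 5) livers for the 55 tested genes, by class, on the horizontal axis, with points coloured by the edgeR call and bars for the standard error. The 29 red points are higher and the 5 blue points lower in AF, and the GST alpha class spans from -0.67 for Gsta3 to 8.46 for Gm3776.

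The PF libraries held 24129900 to 28594027 counts on genes and the AF libraries 25099033 to 30578639. The scaling factors of the trimmed mean of M values were 0.832 to 0.901 in PF and 0.880 to 1.36 in AF, and AF replicate 6 was nearest to PF. These 57 genes made up 1.27 to 1.39% of a PF library and 1.87 to 2.95% of an AF library. Of the marker lists, the 7 tested hepatocyte genes held 97762 to 138598 CPM (counts scaled to library size) in PF and 50560 to 101223 CPM in AF livers, with 3 lower and none higher. The pericentral list summed to 13135.5 to 16410.3 CPM in PF and 1341 to 10756 CPM in AF (3 lower, 1 higher of 11) and the periportal list to 7802 to 11509.9 and 3997 to 9465 CPM (1 lower, 1 higher of 10). Kupffer cell markers summed to 752 to 996 and 1136 to 2925 CPM (7 of 9 higher), recruited macrophage markers to 304 to 684 and 639 to 2619 CPM (7 of 9 higher), and stellate cell and fibroblast markers to 195 to 495 and 419.9 to 1069 CPM (7 of 9 higher). Bile duct markers summed to 58.8 to 253 CPM in PF and 79.6 to 1109 CPM in AF (4 of 6 tested higher). Of male-biased liver genes 10 of 11 were lower, and of female-biased ones 5 of 7 higher. In the other lists, called genes were 1 higher of 8 for sinusoidal endothelium, 1 lower of 7 for T cells, 1 lower of 5 for B cells, 1 lower of 5 for red blood cells and none of 8 for neutrophils in edgeR, of which 2 (S100a8, S100a9) had an unadjusted p under 0.05. Beside these counts, 22.0% of all genes tested were higher and 17.8% lower. RNA of whole liver cannot tell fewer cells of a type from less RNA per cell.

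Gsta1, Gm3776 and Gsta2 lie close together on chromosome 9 and have nearly the same sequence, which limits how reads can be assigned to each. Their coding exon 5 is shown 5′ to 3′ from the GRCm38 transcripts of GENCODE M21, with capitals at the 5 positions where the 3 genes are not all alike. It lies at chr9:78241527-78241658 on the plus strand in Gsta1, at chr9:78268010-78268141 on the plus strand in Gm3776 and at chr9:78332087-78332218 on the minus strand in Gsta2.
Gsta1: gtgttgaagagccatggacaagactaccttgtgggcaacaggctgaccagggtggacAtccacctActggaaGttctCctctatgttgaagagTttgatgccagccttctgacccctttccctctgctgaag
Gm3776: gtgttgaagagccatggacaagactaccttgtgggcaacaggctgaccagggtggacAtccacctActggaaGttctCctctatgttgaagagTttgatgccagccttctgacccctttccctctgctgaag
Gsta2: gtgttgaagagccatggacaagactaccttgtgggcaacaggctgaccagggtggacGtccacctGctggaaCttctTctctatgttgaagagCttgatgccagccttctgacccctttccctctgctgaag
In this exon Gsta1 and Gm3776 were identical and Gsta2 differed from them at all 5 positions. Over the first 5 coding exons (546 bases) Gsta1 and Gm3776 differed at 1 base, with an identical run of 521 bases. Gsta1 and Gsta2 differed at 8 bases and Gsta2 and Gm3776 at 9. Of all windows of 50 bases in the transcripts, 9.5% were unique to Gsta1, 7.52% to Gm3776 and 50.2% to Gsta2.

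The antioxidant response element was searched in promoters as its core, TGACNNNGC, on both strands of the window from 250 bases before to 50 bases after each start in RefSeq (GRCm38.p6). The core was in 12.4% of 32851 promoters, and in a promoter of 16.7% of the 10735 tested genes with an entry. Of the 55 genes tested here 47 had an entry, and 13 of them (27.7%) held the core. It was in 5 of 22 genes that were higher in AF (22.7%) and in 8 of the other 25 (32%). Promoters of a pair of genes that rose (Srxn1 and Txnrd1) and one that was not called (Prdx1) are shown 5′ to 3′ on the gene's strand, with the core in capitals (its reverse complement where it lies on the other strand). Txnrd1 has 3 promoters in the table, of which this is the one with the core, and Srxn1 and Prdx1 have 1 each.
Srxn1, chr2:152105274-152105573, plus strand: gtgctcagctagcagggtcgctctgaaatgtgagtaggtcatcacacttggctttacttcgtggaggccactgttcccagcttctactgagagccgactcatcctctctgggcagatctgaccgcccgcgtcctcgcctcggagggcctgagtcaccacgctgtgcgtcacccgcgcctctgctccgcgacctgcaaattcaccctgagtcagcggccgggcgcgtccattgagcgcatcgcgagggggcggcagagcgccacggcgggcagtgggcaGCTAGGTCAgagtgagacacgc
Txnrd1, chr10:82858956-82859255, plus strand: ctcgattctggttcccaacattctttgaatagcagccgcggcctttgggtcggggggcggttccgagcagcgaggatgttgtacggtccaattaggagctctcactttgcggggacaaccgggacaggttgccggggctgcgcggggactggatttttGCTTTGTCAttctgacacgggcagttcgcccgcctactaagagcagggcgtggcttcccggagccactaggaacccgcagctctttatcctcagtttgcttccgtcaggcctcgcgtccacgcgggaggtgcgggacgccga
Prdx1, chr4:116685349-116685648, plus strand: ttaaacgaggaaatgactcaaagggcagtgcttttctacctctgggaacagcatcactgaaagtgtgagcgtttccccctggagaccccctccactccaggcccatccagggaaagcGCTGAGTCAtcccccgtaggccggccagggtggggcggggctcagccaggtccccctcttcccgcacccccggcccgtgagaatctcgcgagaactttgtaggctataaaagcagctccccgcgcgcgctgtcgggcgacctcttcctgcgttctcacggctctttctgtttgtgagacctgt
Counted from the start site as 0, the first base of the core was at 28 in Srxn1, -92 in Txnrd1 and -133 in Prdx1, all on the strand opposite to the gene. A core was also present in Nfe2l2, Gclm, Mafg, Gstm5, Gstm7, Gsta3, Mgst1, Sod1, G6pdx, Pgd and the untested Ggt1, while Nqo1, Osgin1, Gsta1 and Gstm1 held none in this window. Hmox1, Gclc, Gsr, Prdx6, Sod3, Gsta4, Gstt2 and Abcc1 had no entry. A match describes letters only, and these matches lay in genes that rose, fell and were not called.

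Among the regulators, Nfe2l2 (ENSMUSG00000015839, chr2:75675513-75704641, minus strand, GRCm38) was higher in AF livers. Values of PF livers are given here and for the other genes in the order of replicates 1 to 5. The Nfe2l2 levels in PF replicates 1 to 5 were 97.2, 78.2, 96.5, 84.0 and 75.7 CPM, and in AF livers 88.3 to 179.9 CPM with a median of 123 CPM (log2 fold change 0.60, SE 0.16, edgeR adjusted p = 0.0107). Of the 7 AF livers, 6 lay above all PF livers, and AF replicate 6 lay within their range. Keap1 measured 29.9, 26.9, 24.7, 25.3 and 24.3 CPM in PF and 26.2 to 37.3 CPM with a median of 28.4 CPM in AF livers, which overlapped (log2 fold change 0.24, SE 0.11, edgeR adjusted p = 0.0836). The exact two-sided permutation test over all splits of the livers, whose smallest possible p is 0.00126, gave p = 0.00884 for Nfe2l2 and p = 0.0505 for Keap1. The small MAF gene Mafg was not called (log2 fold change -0.16, SE 0.16). Of 14 further regulators, such as Bach1, Cul3 and Ep300, 1 was higher (Nfe2l1, the related cap'n'collar factor, log2 fold change 0.42, SE 0.12, edgeR adjusted p = 0.0145) and 1 was lower (Rbx1, a subunit of the KEAP1 ubiquitin ligase, log2 fold change -0.28, SE 0.09, edgeR adjusted p = 0.0263), with a median of -0.02.

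All 4 NRF2 marker enzymes were higher in AF livers, with no overlap between the groups. Srxn1 (ENSMUSG00000032802, chr2:152105516-152111376, plus strand), which reduces overoxidised peroxiredoxins, had 75.9, 52.2, 64.4, 62.1 and 72.1 CPM in PF and 359 to 988 CPM with a median of 557 CPM in AF livers (log2 fold change 3.19, SE 0.24, edgeR adjusted p = 1.76e-06). Nqo1 (ENSMUSG00000003849, chr8:107388225-107403206, minus strand), a quinone reductase, had 12.4, 8.51, 12.5, 7.51 and 9.999 CPM in PF and 38.4 to 111 CPM with a median of 53.3 CPM in AF livers (log2 fold change 2.65, SE 0.26, edgeR adjusted p = 1.58e-05). In both genes the lowest AF liver was replicate 4 and the highest was replicate 5. Osgin1, an oxidative stress response gene, had 46.2, 26.5, 21.9, 23.1 and 20.8 CPM in PF and 58.4 to 129 CPM with a median of 73.6 CPM in AF livers (log2 fold change 1.67, SE 0.26, edgeR adjusted p = 5.22e-04), and PF replicate 1 was the nearest to AF. Hmox1, haem oxygenase, which opens the haem ring, had 46.4, 39.5, 44.8, 36.8 and 34.5 CPM in PF and 79.3 to 315 CPM with a median of 88.5 CPM in AF livers (log2 fold change 1.59, SE 0.34, edgeR adjusted p = 0.00334). AF replicate 6 stood above the other 6 AF livers, of which the highest had 110.0 CPM. Leaving out AF replicate 6 lowered the log2 fold change of Hmox1 to 1.15. Hmox1 is also a gene of macrophages, and the Kupffer cell and recruited macrophage lists moved in the same direction with the values given above. By liver, AF replicate 6 had the lowest recruited macrophage sum of the AF livers (639 CPM) and 1409 CPM of the Kupffer cell list. AF replicate 3 was highest in both lists (2619 and 2925 CPM) and next to replicate 6 in Hmox1. The part of macrophages in the Hmox1 result was not tested.

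**Figure D2:**
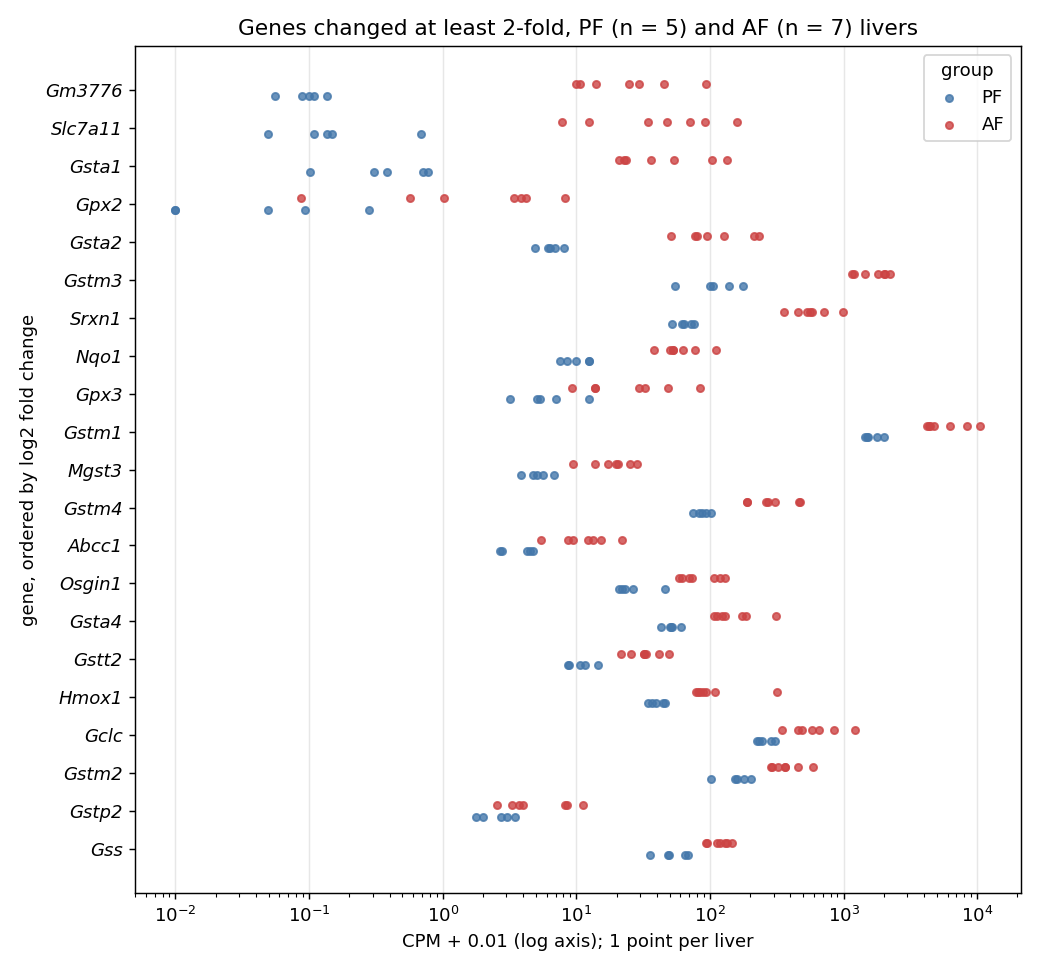
Level of the 21 genes called with a change of at least 2-fold in each liver, as CPM + 0.01 on a log axis, with 1 point per liver (PF blue, AF red) and genes ordered by log2 fold change. The groups overlapped in Gpx2, Gpx3 and Gstp2, and stood apart in the other 18 genes.

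Genes of cystine import, of both ligation steps of glutathione synthesis and of its recycling were higher in AF livers, 4 of 6 tested genes in all, and none was lower. Slc7a11 (ENSMUSG00000027737, chr3:49892526-50443614, minus strand), the xCT subunit that imports cystine in exchange for glutamate, had 0.0984, 0.137, 0.125, 0.0393 and 0.679 CPM in PF and 7.77 to 160.4 CPM with a median of 47.4 CPM in AF livers. PF livers held 24 counts of Slc7a11 in total, 15 of them in replicate 5, against 14290 counts in AF livers, a pooled ratio of 308 (95% exact counting interval 207 to 481). Its log2 fold change was 8.13 (SE 1.00, edgeR adjusted p = 9.05e-05), 9.20 without PF replicate 5 and 7.68 without AF replicate 5. Slc3a2, the heavy chain that xCT needs, rose as well (log2 fold change 1.67, SE 0.25, edgeR adjusted p = 3.74e-04).

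Gclc, the catalytic subunit of glutamate-cysteine ligase, had 245, 306, 224, 234 and 286 CPM in PF and 347 to 1212 CPM with a median of 580.2 CPM in AF livers, with no overlap (log2 fold change 1.34, SE 0.27, edgeR adjusted p = 0.00234). Gclm, its modifier subunit, had 226, 261, 228, 229 and 217 CPM in PF and 146 to 322 CPM with a median of 211 CPM in AF livers (log2 fold change -0.09, SE 0.18, edgeR adjusted p = 0.705). AF livers lay on both sides of the PF livers for Gclm, with AF replicate 4 lowest and AF replicate 5 highest, so the 2 subunits of one enzyme did not move alike by call, although the difference between them was not tested. Gss, glutathione synthetase, had 65.5, 68.4, 35.3, 49.1 and 48.7 CPM in PF and 93.4 to 146 CPM with a median of 118 CPM in AF livers, again with no overlap (log2 fold change 1.15, SE 0.17, edgeR adjusted p = 3.39e-04). Part of the exons of Gss is shared with genes on the opposite strand (Acss2, 6.68%, Gssos2, 6.51%, and Gssos1, 5.44%). The strand setting of the counting is not given in the sources used here. Gsr, which recycles oxidised glutathione, was higher by less (log2 fold change 0.55, SE 0.09, edgeR adjusted p = 8.44e-04), with PF at 60.006 to 70.3 and AF at 82.0 to 109.5 CPM and no overlap. On the breakdown side Ggt6 was not called (log2 fold change 0.02, SE 0.18). Ggt1, the main gamma-glutamyl transferase, had too few counts to be tested, with 11 in PF and 118 in AF livers in total, a pooled ratio of 5.55 (95% exact counting interval 2.99 to 11.4). Of the 118 AF counts 62 were in AF replicate 5, without which the ratio was 3.13, and AF replicates 2, 6 and 7 held 3, 2 and 1, within the PF range of 0 to 5. Ggt1 is a gene of bile duct cells, whose list summed to 58.8 to 253 CPM in PF and 79.6 to 1109 CPM in AF livers, with 4 of 6 tested markers higher and none lower. Its part in these low levels was not tested.

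Around this core, 7 of 24 further glutathione genes were higher and 8 lower, with a median of 0.02. Over all genes tested, 22.0% were higher and 17.8% lower. The highest were Hpgds, a glutathione-dependent prostaglandin D synthase (2.08), Gpx7 (1.69) and Slc3a2. Of the genes with a mean log2 CPM of 0 or more, the lowest were Chac2, which cleaves glutathione in the cytosol (log2 fold change -1.40, SE 0.10, edgeR adjusted p = 1.53e-06), and the glyoxalases Glo1 (-0.98) and Hagh (-0.90), which use glutathione to clear methylglyoxal. Gpx6, below that level, was lower still (log2 fold change -3.32, SE 0.44, edgeR adjusted p = 1.60e-04). Other genes of glutathione breakdown moved in both directions. Ggt5 (0.74) and Dpep1 (1.33) were higher, the peptidase genes Anpep (-0.39) and Lap3 (-0.41) were lower, and Chac1 (-0.76, edgeR adjusted p = 0.328) and Ggct (0.42, edgeR adjusted p = 0.0915) were not called.

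Of the peroxidases, Gpx2, Gpx3 and Gpx4 were higher and Gpx1 was not called. Gpx2, the gastrointestinal form, had 0, 0, 0.0833, 0.0393 and 0.271 CPM in PF and 0.0770 to 8.24 CPM with a median of 3.41 CPM in AF livers (log2 fold change 5.20, SE 1.11, edgeR adjusted p = 0.00301). AF replicate 2 lay among the PF livers. Gpx2 rested on 9 counts in the PF group and 731 in the AF group, a pooled ratio of 42 (95% exact counting interval 22 to 92.2). Its log2 fold change was 6.37 without PF replicate 5 and 4.72 without AF replicate 5. Among AF livers, replicates 5 and 1 were highest both in Gpx2 (8.24 and 4.17 CPM) and in the bile duct list (759 and 1109 CPM). Within PF, replicate 5 was highest in both. AF replicate 2 was lowest in Gpx2 but held 181 CPM of that list, above replicates 6 and 7 (94.2 and 79.6 CPM). The part of bile duct cells in Gpx2 was not tested.

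Gpx3, the secreted plasma form, had 5.36, 3.20, 12.5, 5.11 and 7.01 CPM in PF and 9.23 to 84.2 CPM with a median of 29.2 CPM in AF livers (log2 fold change 2.32, SE 0.55, edgeR adjusted p = 0.00562). Here AF replicate 1 was highest, and AF replicate 6, the lowest, lay below PF replicate 3. Gpx4, which protects membrane lipids, was higher by a small amount (log2 fold change 0.56, SE 0.18, edgeR adjusted p = 0.0285), and AF replicate 6 (257 CPM) was above the others. This call was lost when any of PF replicates 2 to 5 was left out and with the GC and length offset. Gpx1, the main cytosolic form and the highest peroxidase per kilobase of exon, had 549, 562, 382, 411 and 446 CPM in PF and 237 to 701 CPM with a median of 489.6 CPM in AF livers (log2 fold change 0.06, SE 0.23, edgeR adjusted p = 0.858). Per kilobase, Gpx1 was at 326 CPM in PF and 339.7 CPM in AF livers, Gpx4 at 61.2 and 90.1 CPM, and Gpx3 at 3.66 and 18.3 CPM. The peroxidases that rose most were thus expressed at far lower levels per length than Gpx1.

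Thioredoxins and peroxiredoxins, which reduce protein disulphides and hydrogen peroxide, mostly were not called, with 1 of 8 higher and none lower. Txnrd1, the cytosolic thioredoxin reductase, had 171, 165, 169.7, 166 and 161 CPM in PF and 214 to 314 CPM with a median of 236 CPM in AF livers (log2 fold change 0.55, SE 0.10, edgeR adjusted p = 0.00160), with no overlap. The other 7 genes (Txn1, Txnrd2, Prdx1, Prdx2, Prdx3, Prdx5, Prdx6) had log2 fold changes from -0.41 for Prdx6 to 0.16 for Prdx1. Prdx1 had the highest level per length in this class, with 1536, 1394, 1456, 1308 and 1426 CPM in PF and 1282 to 2141 CPM with a median of 1477 CPM in AF livers (log2 fold change 0.16, SE 0.16, edgeR adjusted p = 0.442). Its groups overlapped, while Srxn1, the enzyme that repairs peroxiredoxins, did not overlap between groups.

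In the superoxide dismutases, Sod1, the cytosolic copper and zinc form, fell. It had 615, 643, 573, 546 and 549 CPM in PF and 248 to 602 CPM with a median of 374 CPM in AF livers (log2 fold change -0.57, SE 0.19, edgeR adjusted p = 0.0273), and AF replicate 6 lay among the PF livers. This call was lost without either PF replicate 1, PF replicate 2, AF replicate 3 or AF replicate 4, and with library totals in place of scaling factors. Sod2, the mitochondrial form, measured -0.42 (SE 0.18, edgeR adjusted p = 0.0759), and the secreted Sod3 was slightly higher (log2 fold change 0.36, SE 0.13, edgeR adjusted p = 0.0403), a call lost when any one of 8 of the 12 libraries was left out, with another scaling (RLE), with a looser filter and with the GC and length offset. In 20 further antioxidant genes, 2 were higher (Sesn2, 0.99, and Aifm2, 0.73) and 3 lower (Txnrd3, -1.06, Msrb1, -0.67, and Prdx4, -0.58), while catalase (Cat, -0.36, edgeR adjusted p = 0.274) was not called. The shares over all genes tested were 22.0% higher and 17.8% lower.

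**Figure D3:**
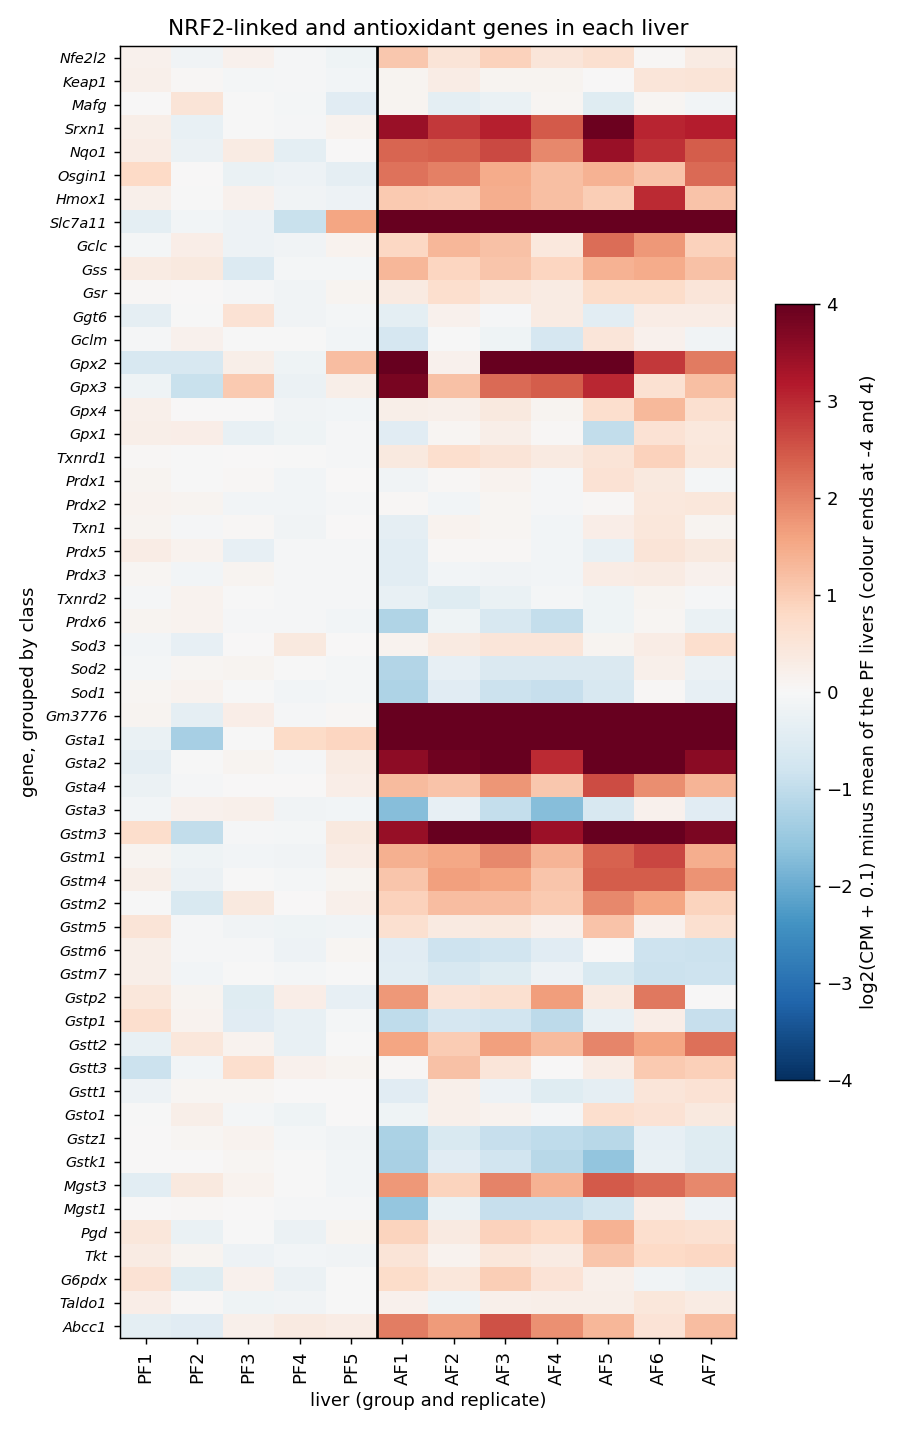
Each tested gene in each liver as log2(CPM + 0.1) minus the mean of the PF livers, with genes in rows by class, livers in columns and colour from blue (lower) to red (higher), ending at -4 and 4. The deepest red in the AF columns is in Srxn1, Slc7a11, Gpx2, Gm3776, Gsta1, Gsta2 and Gstm3, and the thioredoxin and peroxiredoxin rows stay pale. Gpx2 is pale in AF replicate 2 (0.0770 CPM) and lighter in AF replicates 6 and 7 than in the remaining AF livers.

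Among the transferases, the alpha class held the largest rises, with 4 of 5 genes higher and none lower. Gsta1 had 0.295, 0.0915, 0.375, 0.708 and 0.769 CPM in PF and 20.998 to 135 CPM with a median of 36.3 CPM in AF livers (log2 fold change 6.94, SE 0.72, edgeR adjusted p = 2.74e-05). All PF livers together held 52 counts and all AF livers 12606, a pooled ratio of 125 (95% exact counting interval 95.5 to 168). Gm3776 had 0.0984, 0.0458, 0.125, 0.0786 and 0.0905 CPM in PF and 9.92 to 93.5 CPM with a median of 24.8 CPM in AF livers (log2 fold change 8.46, SE 0.88, edgeR adjusted p = 2.73e-05), with at most 3 counts in each PF liver, so that against a floor of 3 counts per library it was at least 220.4-fold higher. Because 75.7% of the Gsta1 windows were shared with Gm3776 and 83% of the Gm3776 windows with Gsta1, sums were tested too. The sum of Gsta1 and Gm3776 had a log2 fold change of 7.35 (SE 0.73, edgeR adjusted p = 2.00e-05). With Gsta2 added, the log2 fold change of the sum was 4.93 (SE 0.47, edgeR adjusted p = 1.40e-05, PF mean 7.01 ± 1.32 CPM, SD, n = 5, AF mean 215 ± 143 CPM, SD, n = 7).

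Gsta2 had 4.92, 6.31, 6.96, 6.13 and 8.05 CPM in PF and 51.4 to 233 CPM with a median of 95.7 CPM in AF livers (log2 fold change 4.28, SE 0.41, edgeR adjusted p = 1.23e-05). Gsta4, which conjugates 4-hydroxynonenal from lipid peroxidation, had 43.1, 49.9, 51.5, 52.1 and 61.1 CPM in PF and 108 to 315 CPM with a median of 130.2 CPM in AF livers (log2 fold change 1.67, SE 0.25, edgeR adjusted p = 4.00e-04). All 4 genes separated the groups without overlap, and AF replicate 5 was the highest liver in each. Gsta4, Gsta1, Gm3776 and Gsta2 lie in this order within 173.0 kb of chromosome 9, chr9:78182774-78355788. This span also holds 3 other annotated protein-coding genes (Omt2b, Omt2a and Gm10639), which are not part of the genes described here or of the sums above. Gsta3, on chromosome 1 and the highest alpha gene per length, had 1966, 2433, 2435, 1926 and 1992 CPM in PF and 651 to 2429.5 CPM with a median of 1361 CPM in AF livers (log2 fold change -0.67, SE 0.30, edgeR adjusted p = 0.0881), with overlap. Without AF replicate 6 it was called lower.

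The 7 mu-class genes lie within 149.1 kb of chromosome 3, chr3:107895821-108044894, with no other annotated protein-coding gene between them. In chromosome order they are Gstm5, Gstm7, Gstm6, Gstm3, Gstm2, Gstm1 and Gstm4. The last 4 rose by at least 2-fold, Gstm7 and Gstm6 fell, and Gstm5 at the end was slightly higher (log2 fold change 0.53, SE 0.18, edgeR adjusted p = 0.0335), a call lost when any one of PF replicates 2 to 5, AF replicate 1 or AF replicate 7 was left out. Gstm1, the highest mu gene per length, had 1786, 1446, 1525, 1489 and 2016 CPM in PF and 4206 to 10547 CPM with a median of 4741 CPM in AF livers (log2 fold change 1.90, SE 0.28, edgeR adjusted p = 3.25e-04). Gstm3 had 176, 54.5, 105, 101 and 139 CPM in PF and 1156 to 2242 CPM with a median of 1818 CPM in AF livers (log2 fold change 3.88, SE 0.31, edgeR adjusted p = 3.67e-06). Neither gene overlapped between groups.

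Gstm4 had 103, 74.4, 86.9, 83.4 and 93.7 CPM in PF and 188 to 473 CPM with a median of 272 CPM in AF livers (log2 fold change 1.81, SE 0.25, edgeR adjusted p = 1.92e-04). Gstm2 had 154, 101, 204, 158 and 179 CPM in PF and 289 to 589 CPM with a median of 363 CPM in AF livers (log2 fold change 1.27, SE 0.21, edgeR adjusted p = 7.60e-04). In both, every AF liver was above every PF liver. Gstm7 (PF 65.2 to 82.7 CPM, AF 38.3 to 61.2 CPM, log2 fold change -0.57, SE 0.12, edgeR adjusted p = 0.00234) and Gstm6 (PF 114 to 152 CPM, AF 71.2 to 131 CPM, log2 fold change -0.57, SE 0.15, edgeR adjusted p = 0.0101) lost their calls when library totals replaced the scaling factors. Summed over all mu genes, the log2 fold change was 1.96 (SE 0.26, edgeR adjusted p = 1.65e-04).

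**Figure D4:**
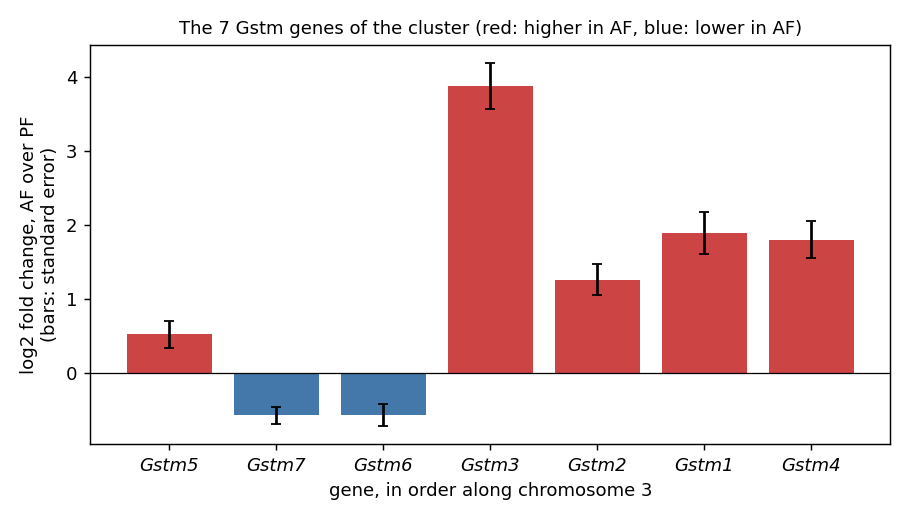
Log2 fold change of AF (n = 7) over PF (n = 5) livers for the mu-class genes in their order on chromosome 3, with standard errors, red for higher and blue for lower in AF. Gstm7 and Gstm6, both at -0.57, are neighbours, and the 4 genes from Gstm3 to Gstm4 are all above a log2 fold change of 1.

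In the pi class, Gstp1 was not called and Gstp2 was higher. Gstp1 had 826, 570.0, 382, 421 and 492 CPM in PF and 251 to 622 CPM with a median of 304 CPM in AF livers (log2 fold change -0.62, SE 0.25, edgeR adjusted p = 0.0672). Gstp2 had 3.49, 2.70, 1.75, 3.03 and 1.99 CPM in PF and 2.53 to 11.2 CPM with a median of 4.01 CPM in AF livers (log2 fold change 1.19, SE 0.38, edgeR adjusted p = 0.0236), with overlap, and lost its call without PF replicate 3 or 5 and in limma-voom. Only 45.7% of windows of 50 bases were unique to Gstp2, and the sum of the pair had a log2 fold change of -0.60 (edgeR adjusted p = 0.0724).

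Of the theta class, Gstt2 was higher. It had 8.66, 14.6, 11.7, 8.73 and 10.6 CPM in PF and 21.7 to 49.0 CPM with a median of 32.1 CPM in AF livers (log2 fold change 1.63, SE 0.20, edgeR adjusted p = 1.01e-04), without overlap. Gstt1, the highest theta gene per length, had 109, 134, 134, 128 and 127 CPM in PF and 90.4 to 187 CPM with a median of 109 CPM in AF livers (log2 fold change 0.02, SE 0.19, edgeR adjusted p = 0.938), and Gstt3 was not called either (log2 fold change 0.56, SE 0.27).

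Gstz1 and Gstk1, which sit in tyrosine breakdown and in mitochondria and peroxisomes, both fell. Gstz1 had 939, 968, 1011, 865 and 839.5 CPM in PF and 382 to 729.8 CPM with a median of 486 CPM in AF livers (log2 fold change -0.79, SE 0.16, edgeR adjusted p = 0.00265). Gstk1 measured 123 to 141 CPM in PF and 44.5 to 108 CPM in AF livers (log2 fold change -0.80, SE 0.19, edgeR adjusted p = 0.00643). Neither overlapped between groups. Part of Gstz1 (9.14% of its exonic bases) is shared with Pomt2 on the opposite strand.

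Of the microsomal transferases, Mgst3 was higher, and Mgst2 had too few counts to be tested. Mgst1, the highest of all these transferases per length in PF livers, had 3839, 3884, 3801, 3671 and 3613 CPM in PF and 1289 to 4490.2 CPM with a median of 2249.9 CPM in AF livers (log2 fold change -0.52, SE 0.26, edgeR adjusted p = 0.131). Mgst3 had 3.84, 6.82, 5.67, 5.03 and 4.75 CPM in PF and 9.50 to 28.3 CPM with a median of 19.7 CPM in AF livers (log2 fold change 1.87, SE 0.25, edgeR adjusted p = 1.68e-04), without overlap. Per kilobase of exon, Mgst1 was at 1869 CPM in PF and 1306 CPM in AF livers, and Gstm1 at 1122 and 4172 CPM. The 3 Mgst genes, the 7 Gstm genes and the other GST genes of this list were summed per kilobase to show the balance of the classes.

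Summed over all GST classes, the level was 4651 ± 242 CPM per kb (SD, n = 5) in PF and 8482 ± 2718 CPM per kb (SD, n = 7) in AF livers. With the length of the longest transcript in place of all exons it was 7073 ± 353 and 10816 ± 3463 CPM per kb, and AF replicates 1 and 4 lay within the PF range. Mu genes made up 31.7% ± 3.57 (SD, n = 5) of this sum in PF and 70.3% ± 5.16 (SD, n = 7) in AF livers, with 36.8% as the highest PF and 62.1% as the lowest AF value. Microsomal genes made up 40.4% in PF and 15.7% in AF livers, alpha genes 11.7% and 7.37%, pi genes 7.46% and 2.73%, and the other GST genes 6.66% and 2.48%. Within the alpha class Gsta3 held 495 of 542 CPM per kb in PF and 312 of 645 CPM per kb in AF livers. At this exon length the alpha genes that rose were the smaller part of the PF sum and close to the size of Gsta3 in AF. With longest transcripts the alpha sum was 831 CPM per kb in PF and 899 CPM per kb in AF livers, and its split by gene was not computed.

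**Figure D5:**
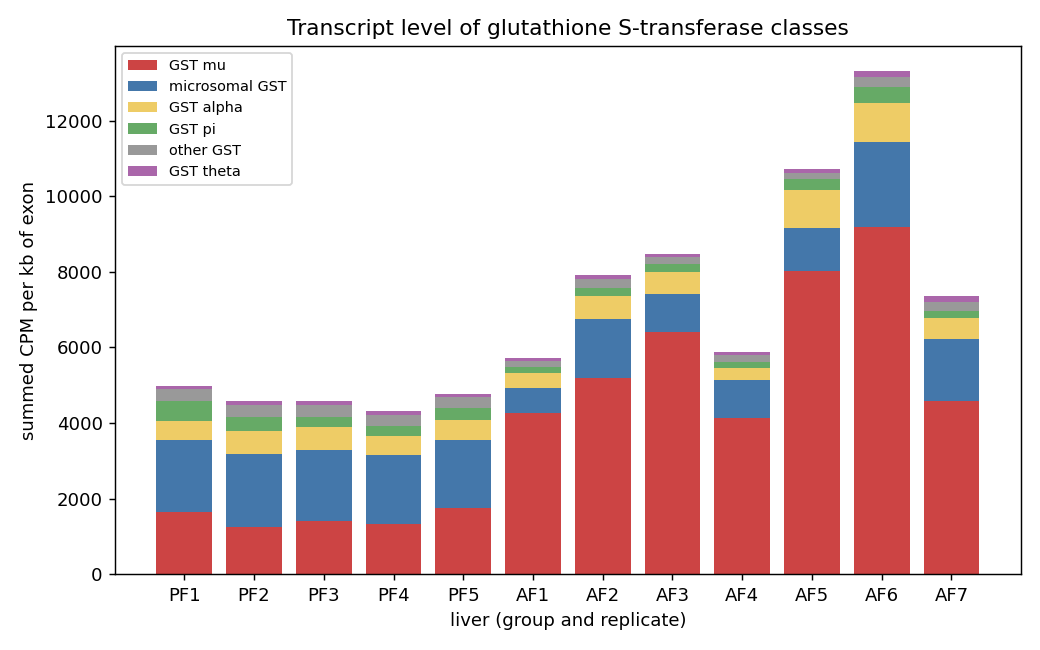
Summed level of the glutathione S-transferase classes in each liver, in CPM per kb of exon, stacked by class with the axis from 0. Mu genes (red) form the largest part of every AF bar, at 62.1% or more, and the microsomal part (blue) is largest in PF, at a mean of 40.4%.

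NADPH, which glutathione and thioredoxin reductases consume, is supplied in part by the pentose phosphate pathway. Pgd, its second NADPH-forming enzyme, was higher (log2 fold change 0.81, SE 0.17, edgeR adjusted p = 0.00305), and so was Tkt, transketolase (log2 fold change 0.62, SE 0.17, edgeR adjusted p = 0.0104), although this call was lost with an offset for GC content and length. G6pdx, the entry enzyme, and Taldo1 were not called. Taldo1, the highest of them per length, had 73.8, 62.7, 54.7, 56.0 and 61.3 CPM in PF and 54.8 to 83.8 CPM with a median of 71.8 CPM in AF livers (log2 fold change 0.21, SE 0.11, edgeR adjusted p = 0.133). Of 11 other NADPH genes, 3 were higher, Mthfd1l (2.08), Idh2 (1.09) and Nadk (0.31), and 4 lower, led by Idh1 (-1.04), Mthfd1 (-0.82) and Nadk2 (-0.77). Over all genes tested, 22.0% were higher and 17.8% lower. Abcc1, which exports glutathione conjugates, had 2.76, 2.65, 4.29, 4.76 and 4.52 CPM in PF and 5.47 to 22.1 CPM with a median of 12.3 CPM in AF livers (log2 fold change 1.70, SE 0.31, edgeR adjusted p = 0.00117), with no overlap.

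Among 25 further NRF2 targets, 17 were higher and 3 lower, with a median log2 fold change of 0.97. The shares over all genes tested were 22.0% higher and 17.8% lower. The highest were Cbr3, a carbonyl reductase (log2 fold change 6.71, SE 0.48, edgeR adjusted p = 1.17e-06), Abcc4, an efflux pump of conjugates (log2 fold change 5.05, SE 0.43, edgeR adjusted p = 5.85e-06), and Htatip2 (log2 fold change 2.27, SE 0.17, edgeR adjusted p = 1.76e-06). Cbr3 too passed the count filter only through its AF counts. The lower ones were Me1, malic enzyme (log2 fold change -0.93, SE 0.19, edgeR adjusted p = 0.00267), and the glucuronosyltransferases Ugt1a6a (-0.86) and Ugt1a6b (-0.82). The targets of NRF2 outside the glutathione genes thus moved mostly upwards, with a few downwards.

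The AF livers differed among themselves. Over the 55 tested genes AF replicate 6 was the highest AF liver in 22 and AF replicate 5 in 18, while AF replicate 4 was the lowest in 17. Of the 29 genes higher in AF, 14 peaked in replicate 5 and 8 in replicate 6, and 12 were lowest in replicate 4. The ratio of highest to lowest AF liver was 107 for Gpx2, whose lowest AF liver held 2 counts. Among other genes that rose it was 20.6 for Slc7a11, 9.43 for Gm3776, 9.12 for Gpx3 and 6.44 for Gsta1. It was 2.75 for Srxn1 and 1.94 for Gstm3, which also rose, and 3.73 for Gsta3 and 2.20 for Gclm, which were not called.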

How the data were processed

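The authors enriched mRNA with oligo(dT), prepared stranded libraries and sequenced 1 library per liver, and the labels' processing notes name FastQC 0.10.1, TopHat2 2.0.13, HTSeq 0.10.0 and the build GRCm38. The deposited values are raw counts per Ensembl gene for 5 PF and 7 AF livers, with no normalization. The annotation and strand setting of the counting are not given in the sources used here, and reads shared by near-identical genes could be lost or moved. Exonic bases shared with a gene on the opposite strand reached 19.1% in Prdx5, 13.9% in Gstm5 and 13.6% in G6pdx. Groups and replicate numbers came from the sample labels.

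Of 54232 IDs, 54165 were named by GENCODE M21. Genes were filtered with filterByExpr, scaled by the trimmed mean of M values and tested with edgeR 4.0.16 (glmQLFit and glmQLFTest, R 4.3.3) with Benjamini-Hochberg adjustment over all 14168 genes and a threshold of 0.05. CPM were computed with these scaling factors, and levels between genes were compared only per kilobase of exon. Exact two-sided permutation tests ran over all splits of the livers into 5 and 7. The scripts were tested on simulated data. Alternatives were DESeq2 1.42.0, limma 3.58.1 (voom, with and without sample quality weights), other scalings and filters, a GC and length offset, a replicate block, longest transcripts in place of exon unions, and each library left out. Values of each PF liver, with the range and median of the AF livers, were set to be given for genes called with an absolute log2 fold change of at least 1, Nfe2l2, Keap1 and the highest gene per length in each class, and other genes by range or fold change. Gclm and Txnrd1 were added to the first set after their values were seen. In the other pathway lists up to 3 genes per direction were named, leaving out those whose mean log2 CPM was below 0. Ggt5, Dpep1, Anpep, Lap3, Chac1, Ggct, Gpx6 and Cat were named after their values were seen. The genes and lists were chosen with earlier results of these data known. Counting intervals (95%, exact) and the floor of 3 counts, which corresponds to 0.0778 to 0.148 CPM, cover counting error only. Of the 31 pairs of libraries compared, none agreed within sampling noise. The p-values measure the spread between these livers, since no source used here gives cages, litters or sequencing batches.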

Additional observations from a re-analysis of the deposited data

Results flagged for a closer look

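In each group of livers, the highest or lowest value was compared with the rest by the ratio of its gap to the range (Dixon's criterion at 95%). Of 110 groups tested over the 55 genes, 12 were flagged, where chance gives about 5.5 if values are normally distributed. The criterion was applied to CPM without a log, on which high values are flagged more readily. The excess over 5.5 can therefore not be read as an excess of outlying livers. In PF livers these were Osgin1 in replicate 1 (46.2 CPM), Gclm in replicate 2 (261 CPM), Slc7a11 in replicate 5 (0.679 CPM), Txnrd2 in replicate 2 (26.1 CPM), Gstm5 in replicate 1 (19.7 CPM) and Gstm7 in replicate 1 (82.7 CPM). In AF livers, replicate 6 was far above the others in Hmox1 (315 CPM) and Gpx4 (257 CPM). AF replicate 5 was far above the others in Gsta4 (315 CPM), Gm3776 (93.5 CPM), Gstm5 (30.8 CPM) and Gstm6 (131 CPM). All of these were the highest value of their group.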

How the results depend on the processing

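Of the 34 genes called among the 55, 26 kept their call and direction under every alternative run, and no called gene reversed. The other 8 (Gpx4, Sod1, Sod3, Gstm5, Gstm6, Gstm7, Gstp2, Tkt) lost the call under at least 1 alternative, and 18 genes not called were called under at least 1. The number of these genes lower in AF, 5, became 10 with sample quality weights in limma-voom, 8 with the GC and length offset and 2 with library totals in place of scaling factors, which also gave 6458 genes higher and 938 lower among all and moved the median log2 fold change of all genes from 0.04 to 0.40, so that 87.3% rather than 55.3% of all calls were higher (95.2% rather than 85.3% among these genes). With the GC and length offset 77.1% of calls among these genes were higher, with the quality weights 75.6%. Leaving out 1 library at a time gave 25 to 30 of these genes higher and 4 to 10 lower (10 without AF replicate 6), and 2519 to 3574 genes higher and 2119 to 2923 lower among all. The causes were not tested. Replicate numbers are shared between groups by name only: same-numbered livers had correlations of deviations between -0.076 and 0.115, and 1 of 5 correlated best with its own number. The fit with the replicate block gave 10 of these genes lower and 39 called, with 74.4% of the calls higher, and 6335 genes called in all, and Gpx4 lost its call in it. With longest transcripts in place of exon unions, the mu share of the GST sum was 24.7% in PF and 62.3% in AF livers and the microsomal share 45.7% and 21.01%. Genes with few PF counts (Slc7a11, Gpx2, Gm3776, Gsta1) are limited by depth and entered the test only through their AF counts. Their counting intervals leave out the spread between livers.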
